A study of Mus musculus with 16 samples.

Results

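Hemidesmosomes are the junctions that tie the basal cells of an epithelium to the basement membrane, and anchoring fibrils tie that membrane to the tissue beneath. The 9 genes described here build these structures and were chosen by symbol, with earlier results of these data known: Itga6, Itgb4, Col17a1, Col7a1, Lama3, Lamb3, Dst, Plec and Cd151. They are 9 of 53800 genes in the deposited count table, and all 9 passed the filter on low counts that left 15501 genes to test. RNA was measured in the distal 150 microns of forelimb buds of B6 mouse embryos from E9.5 to E12.5 in daily steps. The bud tips were treated with trypsin on ice and the ectoderm was lifted off the mesoderm with forceps, which gave 8 groups, each layer at each stage, with 2 libraries per group and 16 in all. The labels name no sort for a cell type, no mutant allele and no treatment, and do not give the number of embryos pooled in a batch. P-values therefore measure the spread between 2 embryo batches per stage, and these batches also differ in extraction kit. At each stage, ectoderm and mesoderm libraries that share a replicate number were made from 1 batch of embryos. Replicate 1 libraries were extracted with the RNeasy Plus Mini Kit and replicate 2 libraries with the RNeasy Mini Kit. A fit below with the replicate number as a block is therefore also a fit with the kit as a block. The design asks which layer holds each transcript and how its level changes with stage.

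The integrin heterodimer α6β4 (Itga6 with Itgb4) is the transmembrane core of the hemidesmosome. Collagen XVII (Col17a1) and the tetraspanin CD151 sit beside it, and the plakins plectin (Plec) and dystonin (Dst, whose epithelial form is BP230) link it to keratin filaments inside the cell. Outside, the integrin binds laminin-332, whose chains include those encoded by Lama3 and Lamb3, and laminin-332 in turn binds the anchoring fibrils of collagen VII (Col7a1). Loss of these proteins causes epidermolysis bullosa, a group of diseases in which the skin blisters.

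Total gene counts per library ran from 10005867 to 30438214. Values below are CPM, read counts scaled to equal library size by edgeR's effective library sizes, and a difference was called where edgeR's quasi-likelihood test gave an adjusted p (Benjamini-Hochberg, all tested genes) under 0.05. The layers were checked against marker genes. The summed CPM of 9 surface epithelium markers (Epcam, Cdh1, Cldn6, Esrp1, Esrp2, Grhl2, Krt8, Krt18 and Trp63) spanned 1802 to 3221 (ectoderm) and 6.22 to 45.1 (mesoderm), and none of the 9 was at 0 in any library. The summed CPM of 9 limb mesenchyme markers was 2305 to 6461 in mesoderm and 390.2 to 1586 in ectoderm. Endothelium markers summed to 342 to 638 CPM in mesoderm and 2.71 to 25.8 CPM in ectoderm. Erythroid markers spanned 1724 to 3341 CPM in mesoderm and 10.4 to 474.5 in ectoderm, macrophage markers 0.861 to 92.7 and 0.527 to 17, and muscle precursor markers 0.4 to 47.7 and 0.457 to 12.8. Of 2 further sets with higher sums in ectoderm, the 5 Schwann cell and melanoblast precursor markers summed to 83.9 to 192 CPM there and 1.83 to 21.7 in mesoderm. Erbb3 alone was at 76.3 to 186 CPM in ectoderm, while Sox10 was at 0 in 5 and Foxd3 in 7 of the 8 ectoderm libraries. This sum was higher at E12.5 (178 and 192 CPM) than at E9.5 (105 and 83.9), and its part in the stage changes below was not tested. The 4 neuron markers summed to 47.1 to 182 CPM in ectoderm and 5.10 to 56.4 in mesoderm, of which Tubb3 made up 46.1 to 181 CPM in ectoderm, where the other 3 reached at most 1.75 CPM each. In bulk tissue of this kind, fewer cells of a type and less RNA per cell cannot be told apart.

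Itga6 and Dst each make more than 1 protein from alternative exons, and the results below turn on the exons shown here. Itga6 (ENSMUSG00000027111, chr2:71745616-71858416, plus strand, mm10) has a cassette exon of 130 bases at chr2:71853534-71853663 that encodes the cytoplasmic tail of the α6A form. When it is skipped, the last exon encodes the tail of the α6B form in its place. The coding parts of both, from GENCODE M21 transcripts of the plus strand on GRCm38 (chr2:71853534-71853641 and chr2:71855854-71856015), run as follows, with the stop codon of each tail in capitals.
Itga6 cassette exon, α6A tail: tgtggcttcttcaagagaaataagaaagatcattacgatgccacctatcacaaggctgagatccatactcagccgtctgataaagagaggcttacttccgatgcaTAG
Itga6 last exon, α6B tail: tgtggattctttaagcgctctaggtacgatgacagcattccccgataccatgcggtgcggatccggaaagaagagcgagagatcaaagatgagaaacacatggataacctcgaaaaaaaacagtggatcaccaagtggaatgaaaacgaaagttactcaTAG

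Dst (ENSMUSG00000026131, chr1:33908225-34308661, plus strand, mm10) spans several start sites. Its short transcript Dst-213 starts at an internal first exon and ends early, in 2 long exons that no other annotated coding transcript contains. The coding part of that first exon (chr1:34160330-34160496, plus strand, GENCODE M21 on GRCm38) carries the start codon, in capitals.
Dst internal first exon: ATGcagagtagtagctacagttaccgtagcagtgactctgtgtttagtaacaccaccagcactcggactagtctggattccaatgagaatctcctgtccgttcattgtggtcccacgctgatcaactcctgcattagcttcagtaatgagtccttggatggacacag
RefSeq (GRCm38.p6) lists an upstream start of Dst as well. The 250 bases before each start (chr1:34011345-34011594 and chr1:34160010-34160259, plus strand) are shown because the exon data below separate transcripts of the internal start from the rest, with GC boxes (GGGCGG on either strand) in capitals.
Dst upstream start: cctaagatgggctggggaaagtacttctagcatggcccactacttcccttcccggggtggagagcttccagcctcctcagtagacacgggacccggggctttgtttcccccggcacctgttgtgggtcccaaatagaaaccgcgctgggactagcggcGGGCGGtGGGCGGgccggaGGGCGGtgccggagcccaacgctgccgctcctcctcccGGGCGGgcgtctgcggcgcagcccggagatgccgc
Dst internal start: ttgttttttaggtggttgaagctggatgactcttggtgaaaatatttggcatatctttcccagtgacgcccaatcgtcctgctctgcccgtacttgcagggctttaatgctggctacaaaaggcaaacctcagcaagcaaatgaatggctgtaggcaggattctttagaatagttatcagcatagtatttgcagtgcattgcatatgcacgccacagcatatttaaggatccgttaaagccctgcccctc
The window of the upstream start held 4 GC boxes and that of the internal start held none. Of all 32851 RefSeq promoter windows of this length, 32.7% held at least 1. Promoter windows of 5 of the 9 genes (Col17a1, Col7a1, Lamb3, Dst and Cd151) were examined here. Neither window of Dst, nor those of Col17a1, Col7a1 and Lamb3, contained TGANTCA, the AP-1 motif, or AACNNGTT, the Grainyhead-like motif, on either strand. Over all windows the shares were 6.75% for the first and 3.64% for the second. A Grainyhead-like match stood in 1 of the 2 Cd151 windows.

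Ectoderm exceeded mesoderm for all 9 genes when the layers were compared over the 4 stages together, where 24.3% of all tested genes were higher and 21.4% lower. The median log2 difference of the 9 was 2.79, and that of all tested genes was 0.01. Without replicate 1 of mesoderm at E12.5 the average difference was 5.23 for Lama3 (4.55 with it) and 8.51 for Lamb3 (7.63 with it). The mesoderm library left at E12.5 had 0 counts of Lamb3, so 8.51 is in part fitted against 0. By stage, 7 of the 9 were called higher in ectoderm at E9.5 (13.1% of all tested genes), 8 at E10.5 (16.2%), and 9 at both E11.5 (12.9%) and E12.5 (13.3%). None was called lower in ectoderm at any stage, against 8.29%, 10.2%, 7.69% and 13.2% of all tested genes in order of stage. At every stage, both ectoderm libraries of each gene were above both mesoderm libraries. The ectoderm library was the higher of the pair in 8 of 8 embryo batches for each gene. The share of all tested genes that do the same is not given here. The exceptions to the calls were Col7a1 at E9.5 and E10.5 (adjusted p = 0.36 and 0.0749) and Lama3 at E9.5 (adjusted p = 0.264). In the fit with a replicate block by embryo batch, Col7a1 was also called at E10.5 (adjusted p = 0.000792). The call of Dst at E9.5 (log2 1.64, adjusted p = 0.0133) was lost without replicate 2 of ectoderm (1.27, adjusted p = 0.106) or replicate 1 of mesoderm (1.17, adjusted p = 0.104), and the value was 2.34 without replicate 2 of mesoderm. That of Plec at E12.5 (1.12, adjusted p = 0.00487) was lost without replicate 2 of mesoderm (0.87, adjusted p = 0.0541).

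**Figure D1:**
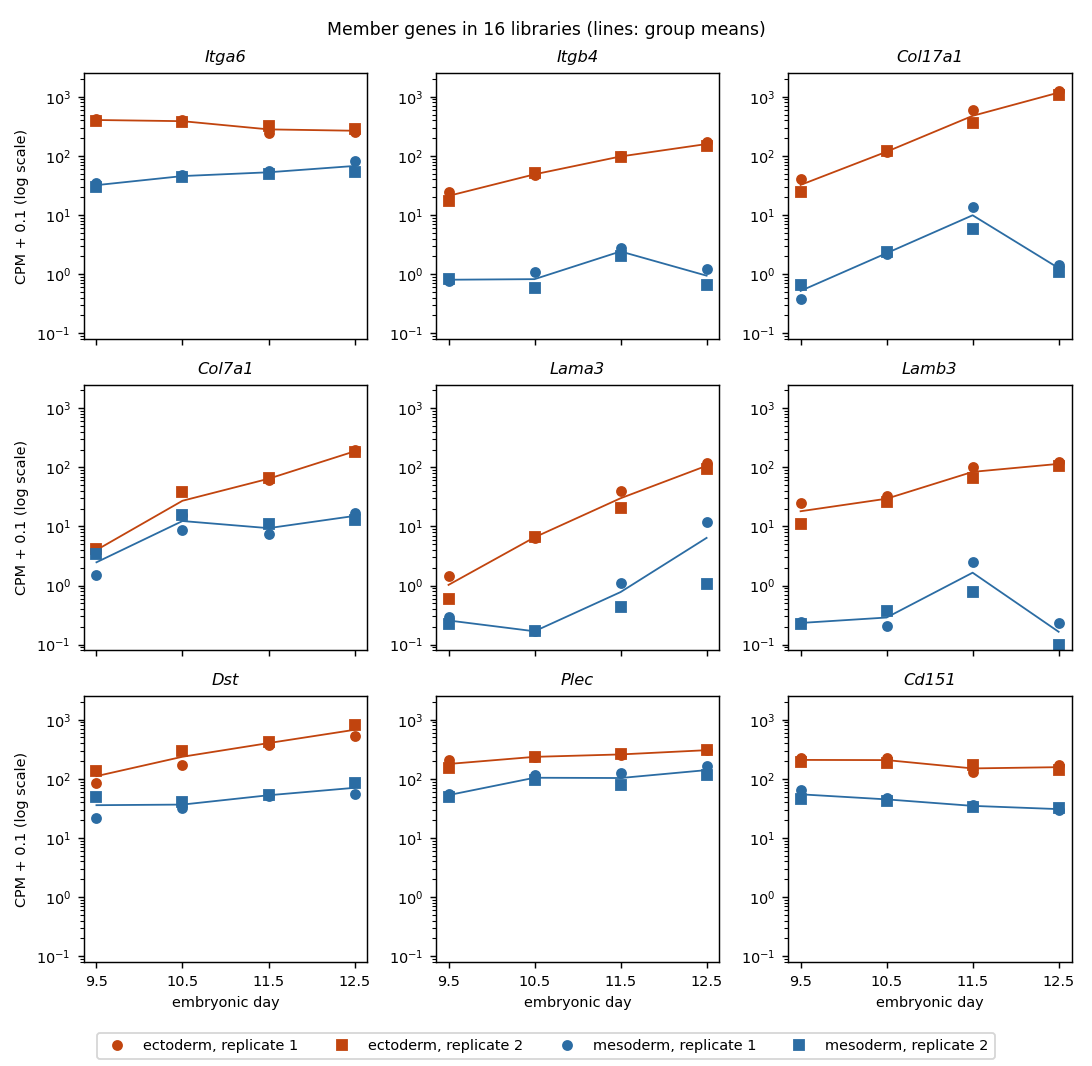
CPM + 0.1 (log scale) of the 9 genes in each of the 16 libraries against embryonic day, with ectoderm in red, mesoderm in blue, circles for replicate 1, squares for replicate 2 and lines through the group means. Itgb4, Col17a1, Col7a1, Lama3, Lamb3 and Dst climb in ectoderm, while Itga6, Plec and Cd151 stay within a narrow range.

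The 2 chains of the α6β4 integrin followed different courses. In ectoderm, Itga6 was at 419.8 and 389 CPM at E9.5 (replicates 1 and 2), then 402 and 370.3 (E10.5), 239.9 and 321 (E11.5) and 248.8 and 283 (E12.5). The E12.5 libraries were both below the E9.5 libraries, a log2 change of -0.60 (SE 0.20, adjusted p = 0.063) that was not called, and that was called with the replicate number as a block (-0.60, adjusted p = 0.015). Itgb4, whose long cytoplasmic tail binds plectin, was at 24.7 and 17.2 CPM at E9.5, then 46.7 and 50.6 (E10.5), 99.9 and 95.4 (E11.5) and 172 and 145 (E12.5). Its groups did not overlap between any of the stages in ectoderm. From E9.5 to E12.5 Itgb4 rose 7.59-fold (log2 2.92, SE 0.30, adjusted p = 9.62e-05).

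Levels can be set against each other between genes only per length, which the deposited FPKM values give. On that scale, Itgb4 in ectoderm was at 4.43% and 3.26% of the Itga6 level at E9.5 (replicates 1 and 2), and 8.83% and 10.2% at E10.5. It reached 31.5% and 22.4% at E11.5, with 52.9% and 39.2% on the last day. Both libraries of each stage were above both of the stage before. Itga6 can also pair with the integrin β1 chain (Itgb1), which had no called difference between the layers over all stages (log2 0.05, adjusted p = 0.56). Itgb1 had 355 ± 5.67 CPM in ectoderm at E9.5 and 400.1 ± 15.5 CPM at E12.5 (SD, n = 2).

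In mesoderm, Itga6 was measured at 34 and 29.8 CPM at E9.5 and at 80.6 and 54.3 CPM at E12.5. Here it rose 2.12-fold (log2 1.08, SE 0.20, adjusted p = 0.00235), so that the layer difference at E9.5 (log2 3.66, SE 0.22) was larger than at E12.5 (1.98, SE 0.21). The change between E9.5 and E12.5 differed between the layers by -1.69 on the log2 scale (ectoderm minus mesoderm, SE 0.28, adjusted p = 0.00431). Itga6 is also made by endothelial cells, and the endothelium markers in mesoderm summed to 606 and 465 CPM at E9.5 and to 638 and 490.5 CPM at E12.5. Their part in the mesoderm level of Itga6 was not tested. Itgb4 in mesoderm did not exceed 2.70 CPM in any library.

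Exon bins, the pieces of exons between transcript borders, were counted separately in the deposited files and tested with diffSpliceDGE of edgeR for a share within the gene that differs between groups. The cassette exon of Itga6 had a higher share in ectoderm over the 4 stages (relative log2 difference 2.67, adjusted p = 7.65e-20), while 0.165% of 156025 bins were called higher and 0.111% lower. Read depth per base of the cassette, as a percent of that of the exon before it, was 45% and 44.8% in ectoderm at E9.5. It was then 110.7% and 106.7% (E10.5), 84.9% and 114% (E11.5) and 83.5% and 118% (E12.5). The 6 later ectoderm libraries were all above the 2 at E9.5. The share of the cassette in the gene did not pass the test for the change between E9.5 and E12.5 in ectoderm (adjusted p = 1) but did with the replicate number as a block (adjusted p = 0.0172). In mesoderm the same percent was 0 in both E9.5 libraries, then 3.88% and 9.38% (E10.5), 11% and 29.4% (E11.5) and 15.8% and 20.8% (E12.5). These mesoderm values rest on few reads, between 0 and 17 in the cassette per library, and every ectoderm library was above every mesoderm library. Reads in the exon of the α6A tail shown above were thus present in ectoderm at every stage. The main bin of the last exon, which both forms contain, was not called different between the layers (relative log2 difference 0.02, adjusted p = 1). A further bin of 1288 bases after the cassette was called higher in ectoderm (1.60, adjusted p = 0.00606). It was not called with either replicate block (adjusted p = 0.0567 by number and 0.0973 by batch), and its value was 0.29 without replicate 2 of ectoderm at E11.5. Its ectoderm reads lay mostly in replicate 2, with 43, 81, 49 and 33 counts in order of stage. Replicate 1 had 3, 4, 0 and 1 counts.

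The gene of collagen XVII, the transmembrane collagen of the junction, had the largest rise in CPM of the 9 genes. Col17a1 (ENSMUSG00000025064, chr19:47646344-47692094, minus strand) stood at 40.2 and 24.1 CPM in ectoderm at E9.5, then 114 and 121 (E10.5), 591 and 359.6 (E11.5) and 1261 and 1091 (E12.5). Each stage lay wholly above the one before. The rise from E9.5 to E12.5 was 36.7-fold (log2 5.20, SE 0.44, adjusted p = 3.29e-05). In FPKM it moved from the fifth place among the 9 genes at E9.5 (4.33 ± 1.32, SD, n = 2), where it overlapped Lamb3, to the first at E12.5 (163 ± 4.94), above Cd151 (76.5 ± 9.19) with no overlap.

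In mesoderm, Col17a1 was at 0.29 and 0.55 CPM at E9.5, then 2.07 and 2.25 (E10.5), 13.8 and 5.79 (E11.5) and 1.35 and 0.98 (E12.5). It was higher at E10.5 than at E9.5 (log2 2.38, SE 0.57, adjusted p = 0.0232) and lower at E12.5 than at E11.5 (log2 -3.06, SE 0.45, adjusted p = 0.0237). The first call was lost without any 1 of the 4 libraries of its groups (adjusted p from 0.0635 to 0.193). The second was -2.29 without replicate 1 of mesoderm at E11.5, the library with the highest value (adjusted p = 0.0783), and was also lost without replicate 1 or 2 of mesoderm at E12.5 or replicate 1 of ectoderm at E10.5 (adjusted p from 0.0501 to 0.252). The sum of the surface epithelium markers was 25.4 and 26.4 CPM at E9.5, then 42 and 19.5 (E10.5), 45.1 and 29.1 (E11.5) and 11.3 and 6.22 (E12.5). Both were highest in replicate 1 at E11.5 and lower at E12.5 than at E11.5. From E9.5 to E10.5 Col17a1 was higher in both replicates while the marker sum was lower in replicate 2. At E12.5 Col17a1 was above its E9.5 values while the markers were below theirs. These CPM do not take account of the rise of Col17a1 in ectoderm. As a percent of the ectoderm CPM of the same batch, Col17a1 was at 0.713 and 2.29 (E9.5), 1.81 and 1.87 (E10.5) and 0.107 and 0.0894 (E12.5). The median of the markers on that scale was 0.493 and 0.772 (E9.5), 1.29 and 0.725 (E10.5) and 0.289 and 0.115 (E12.5). The part of surface cells in the mesoderm values of Col17a1 was not tested. The change between E9.5 and E12.5 was larger in ectoderm than in mesoderm by 3.68 on the log2 scale (SE 0.80, adjusted p = 0.0157), and by 3.18 without replicate 2 of mesoderm at E9.5, which ended the call (adjusted p = 0.149).

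The laminin-332 chain genes Lama3 and Lamb3 differed in level in ectoderm, and both rose with stage. Lamb3 (ENSMUSG00000026639, chr1:193207699-193343878, plus strand), the β3 chain, was at 25 and 11 CPM at E9.5, then 32.5 and 26.3 (E10.5), 102 and 66 (E11.5) and 122 and 106 (E12.5). It rose 6.41-fold over the 3 days (log2 2.68, SE 0.51, adjusted p = 0.00446), although the call was lost without replicate 2 of ectoderm at E9.5 (log2 2.19, adjusted p = 0.055) and the value was 3.38 without replicate 1 at E9.5.

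Lama3 (ENSMUSG00000024421, chromosome 18, plus strand), the α3 chain, was almost absent at the start. Its counts in the ectoderm libraries at E9.5 were 13 and 8, or 1.37 and 0.48 CPM, then 6.30 and 6.61 CPM (E10.5), 39.1 and 20.7 (E11.5) and 119.8 and 92.8 (E12.5). The stages did not overlap, and the rise from E9.5 to E12.5 was 123-fold (log2 6.94, SE 1.01, adjusted p = 0.000857). It was 7.76 without replicate 1 and 6.27 without replicate 2 of ectoderm at E9.5, the libraries with 13 and 8 counts. Against Lamb3 on the FPKM scale, Lama3 was at 4.02% and 2.45% at E9.5, then 13.1% and 16.7% (E10.5), 27% and 21.7% (E11.5) and 69.8% and 61.2% (E12.5). In FPKM, Lamb3 was above Lama3 in each of the 8 ectoderm libraries.

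**Figure D2:**
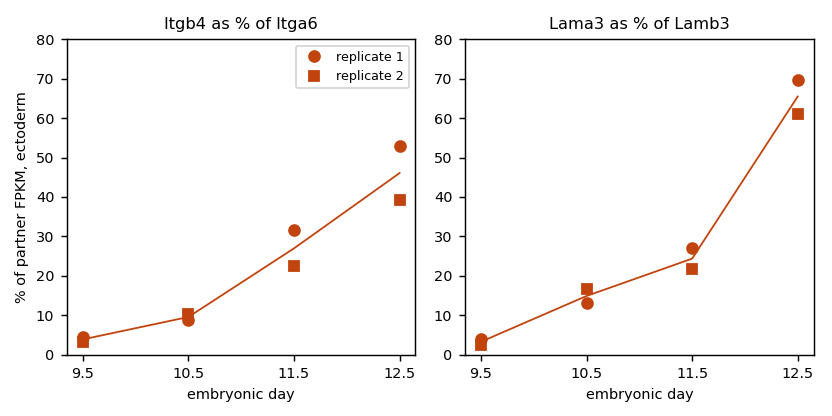
FPKM of Itgb4 as a percent of Itga6 and of Lama3 as a percent of Lamb3 in the 8 ectoderm libraries, by embryonic day (circles, replicate 1; squares, replicate 2; lines, group means). Itgb4 goes from under 5% to between 39.2% and 52.9% of Itga6, and Lama3 from under 5% to between 61.2% and 69.8% of Lamb3.

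Mesoderm held few Lamb3 and Lama3 transcripts, with 1 exception. Lamb3 had 3 counts over both libraries at E12.5, against 4287 in ectoderm, a ratio of 1519 (95% counting interval 519 to 7367). Lama3 had 3 counts over the mesoderm libraries at E10.5, a ratio of 94.2 (31.7 to 461). At E12.5, however, replicate 1 of mesoderm held 267 counts of Lama3 (11.6 CPM) and replicate 2 held 16 (0.98 CPM). The rise of Lama3 in mesoderm (log2 5.26, SE 1.12, adjusted p = 0.00481) was 2.55 and not called without that replicate 1 library (adjusted p = 0.059), and 6.12 without replicate 2 of mesoderm at E12.5.

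The exon bins of Lama3 were looked at after its values had been seen. The annotation holds a long transcript, Lama3-201 (laminin α3B), and a short one, Lama3-202 (laminin α3A), which starts at an internal first exon and shares all later exons. In ectoderm at E12.5, 22 of 4287 and 10 of 2251 bin counts (0.513% and 0.444%) fell in the 38 bins that only the long form has. In replicate 1 of mesoderm at E12.5 it was 168 of 426 (39.4%), and in replicate 2 10 of 27 (37%). The first exon of the short form had 70 and 47 counts in these ectoderm libraries and 0 in every mesoderm library. So at E12.5 the ectoderm reads lay almost wholly in exons that the short form has, and the mesoderm reads spread over both parts of the gene. No bin of Lama3 was called in the average of the layers, in which 38 of its 76 bins could be tested. Surface epithelium markers in replicate 1 of mesoderm at E12.5 summed to 11.3 CPM, less than in the mesoderm libraries of E9.5 to E11.5.

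Transcripts of Col7a1, the gene of the anchoring fibril protein collagen VII, were found in both layers. Col7a1 (ENSMUSG00000025650, chr9:108953586-108984875, plus strand) was at 3.69 and 4.10 CPM in ectoderm and 1.43 and 3.32 CPM in mesoderm at E9.5. At E10.5 it was at 15.8 and 38.5 CPM in ectoderm and 8.76 and 15.8 CPM in mesoderm. At E11.5 ectoderm held 61.4 and 66.6 CPM and mesoderm 7.40 and 11.1 CPM, and at E12.5 ectoderm held 194 and 179 CPM and mesoderm 17 and 13 CPM. The layers did not overlap at any stage, but at E10.5 replicate 1 of ectoderm and replicate 2 of mesoderm were almost level.

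Col7a1 rose 47.6-fold in ectoderm from E9.5 to E12.5 (log2 5.57, SE 0.53, adjusted p = 6.02e-05) and 6.39-fold in mesoderm (log2 2.68, SE 0.48, adjusted p = 0.00186). In mesoderm Col7a1 was called higher at E10.5 than at E9.5 (log2 2.38, SE 0.48, adjusted p = 0.01). Without replicate 2 of mesoderm at E9.5, the mesoderm values were 3.38 for the 3 days and 3.08 for the first day. The layers differed in the change over the 3 days by 2.90 on the log2 scale (SE 0.66, adjusted p = 0.0208), a call that leaving out any 1 of 5 libraries ended. They were replicates 1 and 2 of ectoderm at E9.5, replicate 1 of ectoderm at E12.5, and replicate 2 of mesoderm at E9.5 and at E12.5, with 2.19 to 2.98 and adjusted p from 0.062 to 0.111. Among genes that fold and process procollagen (Serpinh1, P3h1, P4hb, Plod1, Plod2, Plod3, Bmp1, Tll1, Tll2, Mep1a and Mep1b), 8 of 11 were tested, of which 1 was higher and 4 were lower in ectoderm over the stages, beside 24.3% and 21.4% of all tested genes, with a median of -0.10 beside 0.01. Plod3, a lysyl hydroxylase, was the 1 higher gene (log2 0.26, adjusted p = 0.04). Bmp1, a protease that trims procollagens, was lower (-0.32, adjusted p = 0.0075), and so was its relative Tll1 (-2.97, adjusted p = 0.00028). P3h1, a prolyl hydroxylase, had the smallest difference (0.12, adjusted p = 0.49).

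The dystonin gene rose in ectoderm, and the exons of its short form took a larger share of its reads there than in mesoderm. Dst as a whole gene was at 86.1 and 136 CPM in ectoderm at E9.5, then 174 and 298 (E10.5), 379.7 and 425 (E11.5) and 526 and 823 (E12.5), a rise of 6.08-fold (SE 0.42 on the log2 scale, adjusted p = 0.00163). No stage overlapped the one before. Mesoderm held 22 and 49.4 CPM at E9.5 and 56.2 and 84.5 at E12.5, a change that was not called (log2 0.98, adjusted p = 0.09) except with the replicate number as a block (1.03, adjusted p = 0.00115). The difference between these changes was 1.62 (SE 0.56, adjusted p = 0.113), and 1.55 in the fit blocked by batch (adjusted p = 0.000305).

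Of 105 tested bins of Dst, 4 were called higher and 2 lower in ectoderm over the 4 stages. Over Itga6, Dst and Plec together these counts were 6 and 2, and with a replicate block they were 15 and 30 (embryo batch) or 19 and 31 (replicate number). Under those blocks 0.404% and 0.245% of all bins were called higher and lower by batch, and 0.401% and 0.241% by number. The 2 exons that are particular to Dst-213 in the annotation (chr1:34177796-34180498, 2703 bases, and chr1:34181135-34183904, 2770 bases) were among the higher bins. The relative log2 differences were 2.95 (adjusted p = 3.92e-33) and 2.74 (adjusted p = 2.03e-31). Together these exons held 10.2% and 8.45% of Dst bin counts in ectoderm at E9.5, then 25.4% and 18.4% (E10.5), 31.5% and 25.8% (E11.5) and 41.3% and 31.8% (E12.5). In mesoderm the share was between 0.315% and 4.19%, with the highest value in replicate 1 at E11.5, the library with the highest sum of surface epithelium markers (45.1 CPM). Every ectoderm library was above every mesoderm library.

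Scaled to library size and length, the short form's exons were at 2.37 and 3.03 CPM per kb in ectoderm at E9.5, below the 4.67 and 8.15 CPM per kb of the 75 bins after the end of Dst-217, which belong to longer or separate transcripts. At E10.5 the short form's exons were at 11.1 and 14 CPM per kb and the later bins at 7.12 and 15.3. By E12.5 the order was reversed, with 51.9 and 64.2 CPM per kb for the short form's exons and 9.19 and 25.1 for the later bins. In mesoderm at E12.5 these values were 0.119 and 0.145 for the short form and 4.33 and 6.31 for the later bins. The 4 bins between the short form and the end of Dst-217, which include an exon of 5292 bases, are left out of these values. With all 79 bins after the short form, an alternative chosen after the data were seen, the later bins were at 3.71 and 6.53 CPM per kb in ectoderm at E9.5, 5.42 and 11.9 at E10.5 and 7.01 and 19.5 at E12.5. The order at E9.5 and E12.5 was the same, and at E10.5 replicate 2 then had the short form's exons above the later bins. Within ectoderm, the share of the 2 exons did not pass the test for the change between E9.5 and E12.5 (1.41 and 1.26, adjusted p = 0.152 and 0.518), but both did with the replicate number as a block (adjusted p = 5.01e-13 and 1.54e-10).

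The internal first exon of Dst shown above, which Dst-213, Dst-215 and Dst-217 share, was also higher in ectoderm (3.01, adjusted p = 3.59e-07), and its value was 3.74 without replicate 1 of mesoderm at E11.5. It had 9 and 12 counts in the ectoderm libraries at E9.5, then 15 and 40 (E10.5), 130 and 79 (E11.5) and 167 and 199 (E12.5). Of the 8 mesoderm libraries, 6 had no count in it, and the others had 5 and 3. Bins upstream of this exon belong to transcripts that start before it. They went from 2.99% and 3.84% of Dst counts in ectoderm at E9.5 to 0.16% and 0.449% at E12.5. In mesoderm they stayed between 3.86% and 5.66%. Not all long transcripts start there, as Dst-215 starts at the internal first exon and shares last exon bins with Dst-201. In ectoderm with stage, 0.00961% of all bins were called higher and 0.00192% lower, and in mesoderm 0.00833% and 0.00577%, where no bin of Itga6, Dst or Plec was called. With the replicate number as a block, an exon of 5292 bases at the end of Dst-217 lost share in ectoderm from E9.5 to E12.5 (adjusted p = 2.72e-12). Without a block, Dst as a gene was not called in this comparison (Simes test over its bins, adjusted p = 0.292). The exon itself was called without a block (-1.87, adjusted p = 0.0236). Leaving out any 1 of 5 libraries ended this call, 3 of them ectoderm libraries of E9.5 and E12.5 (replicates 1 and 2 at E9.5, adjusted p = 0.215 and 1, and replicate 1 at E12.5, adjusted p = 1), and the value was -2.81 without replicate 2 at E12.5.

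**Figure D3:**
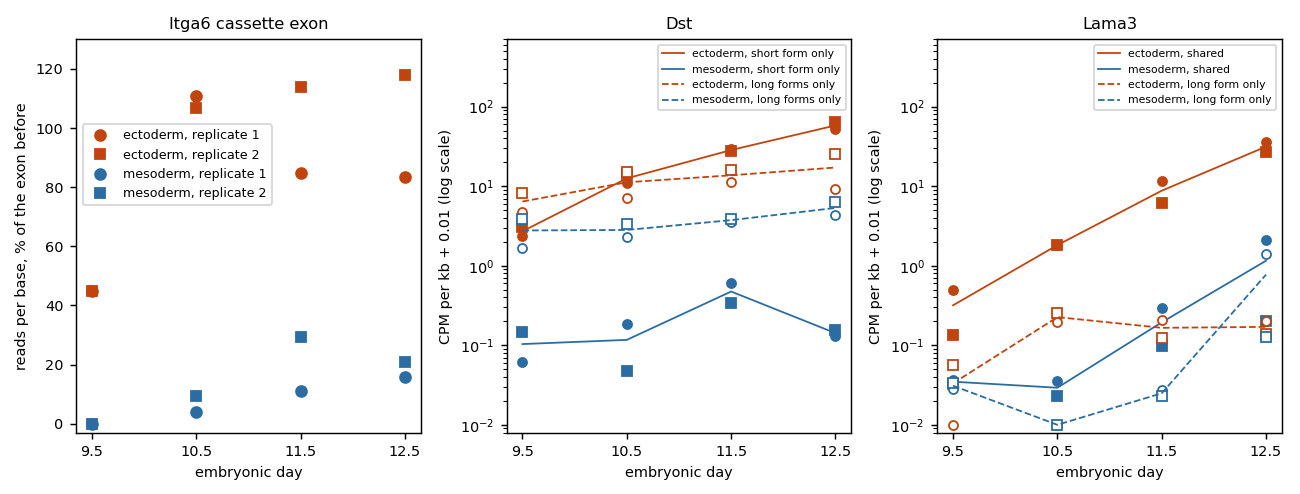
Left, read depth per base of the Itga6 cassette exon as a percent of the exon before it; middle, CPM per kb + 0.01 (log scale) of Dst exons of the short form only and of the bins after the end of Dst-217 (long forms only); right, the same for Lama3 bins of the long form only and bins that both forms share. Red is ectoderm, blue mesoderm, circles replicate 1, squares replicate 2, and lines are group means; the short form of Dst passes the later bins between E9.5 and E12.5 in ectoderm only, from 2.37 and 3.03 to 51.9 and 64.2 CPM per kb.

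The genes of plectin and CD151 had no called change with stage in ectoderm, as was the case for Itga6. Plec (ENSMUSG00000022565, chr15:76170974-76232574, minus strand), the plakin that binds both β4 integrin and keratin, was at 204 and 153 CPM in ectoderm at E9.5 and at 305.5 and 304.6 CPM at E12.5. That change was log2 0.78 (SE 0.24, adjusted p = 0.0507) and was called with the replicate number as a block (0.79, adjusted p = 0.00233). In mesoderm Plec rose from 56.2 and 49.6 CPM to 167 and 114 CPM (2.65-fold, log2 1.41, SE 0.25, adjusted p = 0.00159), and the difference of the change between layers was not called (-0.63, SE 0.34, adjusted p = 0.354). Plec had the smallest layer difference of the 9 genes (log2 1.34, SE 0.12, adjusted p = 3.12e-06).

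None of the 34 tested bins of Plec was called in any of the 3 bin comparisons. The alternative first exon of Plec-201 (chr15:76195424-76195710) was at 0.85 in ectoderm against mesoderm (adjusted p = 0.179) and was called with either block (adjusted p = 0.048 by embryo batch and 0.00876 by number). It held between 0.41% and 0.69% of Plec counts in the ectoderm group means and between 0.14% and 0.28% in those of mesoderm. These shares rest on few reads, between 6 and 49 per ectoderm library and between 1 and 11 per mesoderm library. At E9.5 the layers overlapped, with 0.614% and 0.205% in ectoderm and 0.137% and 0.419% in mesoderm. The bin of 7410 bases at the end of the gene held over 50% of all Plec counts in each group and had a relative log2 difference of 0.04 (adjusted p = 1).

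Cd151 (ENSMUSG00000025510, chr7:141467392-141471473, plus strand) was at 229 and 189 CPM in ectoderm at E9.5, then 228 and 187 (E10.5), 128 and 171 (E11.5) and 174 and 141 (E12.5). Its change from E9.5 to E12.5 in ectoderm was not called (log2 -0.41, SE 0.21, adjusted p = 0.241). In mesoderm it fell from 64.5 and 44.7 CPM to 29.5 and 31.7 CPM (log2 -0.83, SE 0.21, adjusted p = 0.0129). That call was lost without replicate 1 of mesoderm at E9.5 (-0.55, adjusted p = 0.13) or at E12.5 (-0.78, adjusted p = 0.081). Exons of Cd151 overlap those of Gm10575 on the other strand by 192 bases, and Gm10575 reached at most 5.50 CPM. Exon overlaps of Itgb4, Lama3 and Dst with genes of the other strand concern genes of at most 0.366 CPM, and the exon overlap of Col7a1 is with Mir711, which had no counts.

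**Figure D4:**
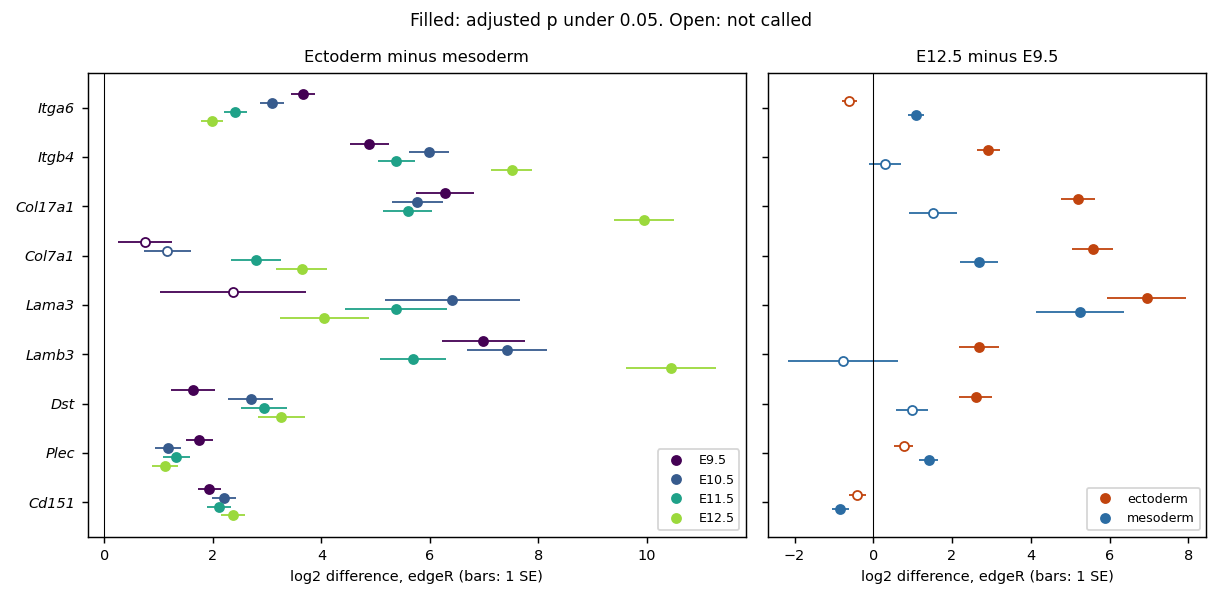
Left, log2 difference of ectoderm minus mesoderm at each stage; right, log2 change from E9.5 to E12.5 in each layer, for the 9 genes (points, edgeR estimate; bars, 1 SE; filled, adjusted p under 0.05; open, not called). Layer differences run from 0.74 (Col7a1 at E9.5, 0.24 to 1.44 with 1 library left out) to 10.4 (Lamb3 at E12.5, 9.70 to 14 with 1 library left out). The value of 14 is fitted against a mesoderm library with 0 counts of Lamb3. For Itga6 the differences go from 3.66 at E9.5 to 1.98 at E12.5.

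Over the 3 days in ectoderm, 6 of the 9 genes rose (Itgb4, Col17a1, Col7a1, Lama3, Lamb3 and Dst) while 9.1% of all tested genes rose, and none fell while 7% of all tested genes fell. Their median was 2.68, beside 0.00 for all tested genes. With the replicate number as a block 7 rose, Plec being the added gene (17.8% of all tested genes), and 1 fell (Itga6), beside 17.5% of all tested genes. In mesoderm 4 rose (Itga6, Col7a1, Lama3 and Plec) while 17% of all tested genes did, and 1 fell (Cd151), beside 12.6%. With the block 5 rose there, Dst being added (26.7%). For the difference of these changes between the layers, 3 genes were higher in ectoderm (Itgb4, Col17a1 and Col7a1, beside 3.12% of all tested genes) and 1 was lower (Itga6, beside 5.15%). Itgb4 had a difference of 2.62 (SE 0.50, adjusted p = 0.00887), and of 3.27 without replicate 1 of mesoderm at E12.5. The layer comparisons and the stage comparisons share libraries.

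Single days resolved less. From E9.5 to E10.5 in ectoderm, 3 of the 9 genes rose (2.95% of all tested genes, with 1.18% lower and no gene of the 9 lower): Itgb4 (log2 1.22, SE 0.28, adjusted p = 0.036), Col17a1 (1.87, SE 0.38, adjusted p = 0.019) and Col7a1 (2.79, SE 0.48, adjusted p = 0.00802). All 3 calls were lost without replicate 1 of ectoderm at E9.5 (adjusted p = 0.0869, 0.0571 and 0.0821), and likewise without replicate 2 at E9.5 or replicate 2 at E10.5. With the replicate number as a block, 5 genes rose in this step (9.34% of all tested genes), with Lama3 (adjusted p = 0.0148) and Dst (1.08, adjusted p = 0.00352) added. From E10.5 to E11.5 none of the 9 was called (0.00645% of all tested genes rose), and 6 were with the block (1.26%). These were Itgb4, Col17a1 (1.96), Col7a1 (1.29), Lama3 (2.08), Lamb3 (1.48) and Dst (0.82), with adjusted p from 0.00346 to 0.046. From E11.5 to E12.5 none was called (0.116% rose and 0.31% fell), and 4 were with the block (1.43%), namely Itgb4 (0.69), Col17a1 (1.34), Col7a1 (1.56) and Lama3 (1.92), with adjusted p from 0.00778 to 0.0356.

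In mesoderm, Col17a1, Col7a1 and Plec were called higher at E10.5 than at E9.5 (5.3% of all tested genes, with 3.95% lower and none of the 9 lower), with Plec at log2 0.98 (SE 0.24, adjusted p = 0.0289). Itga6 was called as well with the replicate number as a block (0.51, adjusted p = 0.0481). All 3 calls were lost without replicate 1 of mesoderm at E9.5 or without replicate 2 of mesoderm at E10.5. No gene of the 9 was called from E10.5 to E11.5 (0.277% of all tested genes rose), while Itgb4 (1.60), Col17a1 (2.21) and Lamb3 (3.33) were higher with the replicate number as a block (3.04%), with adjusted p from 0.00419 to 0.0141. From E11.5 to E12.5 only Col17a1 was lower (0.161%) and none was higher (0.148%), and with the block Itgb4 (-1.42), Col17a1 (-3.05) and Lamb3 (-4.32) were lower (1.97%) and Lama3 (3.04) was higher (3.22%), with adjusted p from 0.0018 to 0.0255. The genes that were high in mesoderm at E11.5, Itgb4, Col17a1 and Lamb3, were highest in replicate 1 (2.70, 13.8 and 2.44 CPM), the library with the highest sum of surface epithelium markers.

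The mesoderm level of each gene was also taken as a percent of the ectoderm library of its embryo batch. Over the 8 batches the percent ran from 0 to 2.40 for Lamb3, from 0.0894 to 2.33 for Col17a1 and from 0.378 to 4.29 for Itgb4. The median of the 9 surface epithelium markers, treated the same way, ran from 0.115 to 2.271. Itgb4 was above that median in 8 of 8 batches, Col17a1 in 6 and Lamb3 in 4. Itgb4 was above the highest of the 9 markers only in replicate 1 at E10.5 (2.07 beside 1.75) and replicate 2 at E11.5 (2.02 beside 1.87). For Itga6 the percent ran from 7.65 to 32.4, for Dst from 10.3 to 36.4 and for Cd151 from 17 to 28.2. For Plec it ran from 27.6 to 54.6 and for Col7a1 from 7.27 to 80.9. Each of these 5 was above the marker median in 8 of 8 batches as well, and also above the highest marker in each batch. Lama3 ran from 1.03 to 25.5, with the high values at E9.5, where its counts were 4 and 2 in mesoderm, and in replicate 1 at E12.5 (9.72), and was above the marker median in 7 batches. How much of the mesoderm signal of Lamb3, Col17a1 and Itgb4 came with surface cells was not tested.

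**Figure D5:**
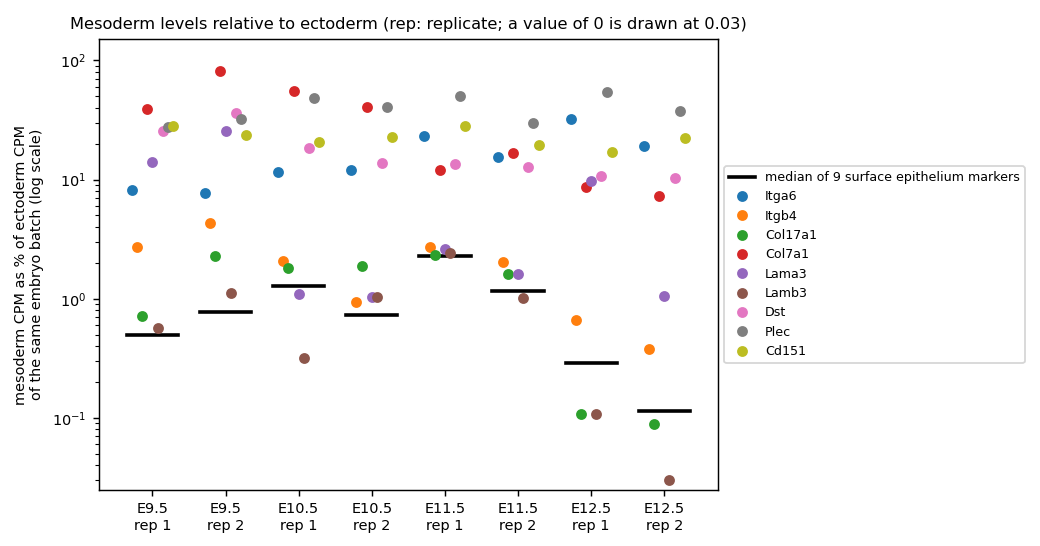
Mesoderm CPM as a percent of the ectoderm CPM of the same embryo batch (log scale) for the 9 genes in 8 batches, with the median of 9 surface epithelium markers as a black bar. Itga6, Col7a1, Dst, Plec and Cd151 lie at 7.27% and over in each batch and Itgb4, Col17a1 and Lamb3 at 4.29% or less. Itgb4 lies above the bar in each batch, as those 5 genes do. The highest single marker, which is not drawn, was below those 5 genes in each batch. It was below Itgb4 only in replicate 1 at E10.5 and replicate 2 at E11.5.

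Of 22 partner genes of basal adhesion and the basement membrane, all were tested and 17 were higher and 2 lower in ectoderm over the 4 stages, beside 24.3% and 21.4% of all tested genes, with a median of 2.39 beside 0.01. The list was Lama5, Lama1, Lamb1, Lamb2, Lamc1, Itga3, Itgb1, Krt5, Krt14, Krt8, Krt18, Col4a1, Col4a2, Col4a5, Col4a6, Nid1, Nid2, Hspg2, Dag1, Fermt1, Lad1 and Ddr1. Fermt1, the epithelial kindlin, differed most (log2 7.96, adjusted p = 2.2e-10), followed by the basal keratins Krt5 (7.74, adjusted p = 3.5e-07) and Krt14 (7.03, adjusted p = 1.8e-07), to which hemidesmosomes attach. The nidogens Nid1 (-3.23, adjusted p = 9e-07) and Nid2 (-3.39, adjusted p = 1e-05) were the 2 lower genes. Differences were smallest for Col4a1, a chain of collagen IV (-0.03, adjusted p = 0.93), and for Itgb1.

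In ectoderm from E9.5 to E12.5, 3 of the 22 partners rose and 4 fell, beside 9.1% and 7% of all tested genes. The risers were Krt14 (log2 6.49, adjusted p = 0.00044), Krt5 (3.04, adjusted p = 0.032) and the laminin chain Lama5 (0.90, adjusted p = 0.039). The simple-epithelium keratins Krt8 (-2.09, adjusted p = 0.017) and Krt18 (-1.34, adjusted p = 0.029) fell, together with the laminin chain Lama1 (-2.18, adjusted p = 9.6e-05) and Nid2 (-2.83, adjusted p = 0.02). Itga3, whose protein binds the same laminin outside hemidesmosomes, was at 645 ± 97.7 CPM at E9.5 and 433 ± 42.1 CPM at E12.5 (SD, n = 2), a change that was not called (-0.57, adjusted p = 0.36).

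Of 5 other plakins (Macf1, Ppl, Evpl, Eppk1 and Dsp), 4 were higher in ectoderm over the stages (24.3% of all tested genes) and 4 rose in ectoderm from E9.5 to E12.5 (9.1%), Macf1 being the exception in both. Ppl, the gene of periplakin, differed most between the layers (log2 7.55, adjusted p = 3e-10). Evpl, the gene of envoplakin, rose most (log2 4.03, adjusted p = 6.3e-05), and the desmosomal plakin Dsp rose by 2.39 (adjusted p = 0.0043). Both rose more in ectoderm than in mesoderm, by 4.78 (adjusted p = 0.0005) and 3.77 (adjusted p = 0.0045). Macf1, the close relative of Dst that links actin and microtubules, had no called difference between layers (-0.08, adjusted p = 0.72) or with stage in ectoderm (-0.06, adjusted p = 0.94).

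Of 9 other tetraspanins (Cd9, Cd81, Cd63, Cd82, Cd37, Cd53, Tspan4, Tspan8 and Tspan15), 7 were tested, of which 3 were higher and 2 lower in ectoderm over the stages, beside 24.3% and 21.4% of all tested genes, with a median of 0.04. Cd9, a tetraspanin found in many epithelia, was higher by 2.75 (adjusted p = 4.1e-07), and Cd53, a gene of blood cells, was lower (-4.37, adjusted p = 0.00048). Cd81 differed least (0.04, adjusted p = 0.76). Tspan15 (log2 1.64, adjusted p = 0.0038) and Cd82 (2.21, adjusted p = 0.006) rose in ectoderm from E9.5 to E12.5, and no tetraspanin of the list fell there, beside 9.1% and 7% of all tested genes.

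Among 12 regulators of stratified epithelia (Trp63, Klf4, Klf5, Tfap2a, Tfap2c, Grhl2, Grhl3, Ovol1, Fosl1, Fosl2, Jun and Junb), 11 were tested. In the average over the stages 9 were higher in ectoderm and none lower, beside 24.3% and 21.4% of all tested genes. Single stages could differ from that average. Mean Tfap2c was 37.2 CPM in ectoderm and 80.9 in mesoderm at E9.5, and 49 and 87.5 at E10.5. At E11.5 and E12.5 it was higher in ectoderm (34.9 and 39.8 CPM) than in mesoderm (23.5 and 8.53). In ectoderm from E9.5 to E12.5, 6 of the 11 rose and none fell, beside 9.1% and 7% (median 1.19, beside 0.00 for all tested genes). Ovol1, a zinc finger repressor of epithelia, differed most between the layers (log2 7.94, adjusted p = 5.5e-09). Klf4 (log2 2.87, adjusted p = 0.00017) and Klf5 (2.56, adjusted p = 6.2e-05), zinc finger factors of epithelia, rose most. Trp63, the master gene of stratified epithelia, was at 550.2 ± 6.29 CPM at E9.5 and 701 ± 61.9 CPM at E12.5 (SD, n = 2) and did not pass the test (0.35, adjusted p = 0.48). The AP-1 members Fosl2 (2.33, adjusted p = 0.0016) and Jun (2.23, adjusted p = 0.00044) rose, and Junb had the smallest change (0.03, adjusted p = 0.99).

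The genes with the most similar profile were searched by the Pearson correlation of log2(CPM + 0.5) over the 8 group means among 12001 genes. These means share libraries and the layer contrast, so high values are common and are given as a description only. Krt14 was the nearest to Col17a1 (r = 0.993), with group means of 14.2 to 1279 CPM (ectoderm) and 0.181 to 10.4 CPM (mesoderm), followed by Wnt7b (0.987). Bmp8a was nearest to Itgb4 (0.996) and to Lamb3 (0.995), Wnk2 to Itga6 (0.998), Llgl2 to Cd151 (0.996) and Ier5 to Plec (0.995). Elf1 was nearest to Dst (0.996), Atp9a to Lama3 (0.993) and Ist1 to Col7a1 (0.992). Such an r compares the shape of a profile and not the size of its changes. Group means of Ist1 ran from 117 to 186 CPM in ectoderm and from 113 to 136 in mesoderm. Those of Col7a1 ran from 3.90 to 186 CPM and from 2.38 to 15 CPM.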

How the data were processed

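Polyadenylated RNA was sequenced with a strand-specific kit (TruSeq Stranded mRNA), per the labels' protocols. The submitters' processing notes name cutadapt 1.16, STAR 2.6.0c, Cufflinks 2.2.1, bedtools 2.27.1 and mm10. The counter and its strand setting are not given in the sources used here. The authors deposited raw counts per gene, raw counts per exon bin, and FPKM values from Cufflinks. The 9 genes and the partner and marker lists were chosen with earlier results of these data known.

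Gene counts were tested with edgeR 4.0.16 (R 4.3.3) by glmQLFit and glmQLFTest, with TMM scaling, filterByExpr, a mean for each of 8 groups, no block and 8 residual degrees of freedom. Benjamini-Hochberg adjustment ran over 15501 tested genes of 28342 with any count. Exon bins were tested with diffSpliceDGE over 156025 bins. Both scripts were tested on simulated data. CPM are counts over effective library sizes. Exon bins were tied to transcripts of GENCODE M21 by bin number and order, and those of Col7a1 could not be matched. Those of Plec matched in number only with a coding transcript of that gene left out. Promoters are RefSeq windows on GRCm38.p6.

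Same-numbered ectoderm and mesoderm libraries share an embryo batch, per the labels. Deviations from group means correlated at 0.546, 0.666, 0.561 and 0.651 within a batch in order of stage, and at 0.432 to 0.58 between layers of different stages. Blocks by embryo batch (layer comparisons and their difference) and by replicate number were alternatives. Others were DESeq2 size factors, no filter on low counts, DESeq2 1.42.0, limma 3.58.1 on log2(FPKM + 0.1), limma diffSplice, bins with at least 50 counts, and leaving out each of 16 libraries. Counting intervals are exact 95% intervals and cover counting error only, as reads carried no molecular identifiers named in the labels.

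All 9 genes were named throughout. In each partner list the rule named the genes with the largest and smallest layer difference; 2 genes of these lists are not reported here and were left out of the list counts. Other partner genes, and the exon bins of Lama3, were chosen after their values were seen. The most similar genes were those with the highest r over group means among genes with a mean of at least 5 CPM in 1 group.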

Additional observations from a re-analysis of the deposited data

Results flagged for a closer look

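Ectoderm and mesoderm differed in the E12.5 against E9.5 change for 4 of the 9 genes, by the test of the difference itself (edgeR's quasi-likelihood test, ectoderm minus mesoderm, log2). Itga6 had -1.69 (adjusted p = 0.00431), with a rise in mesoderm of 1.08 and a change of -0.60 in ectoderm that was not called. Itgb4 had 2.62 (adjusted p = 0.00887), with 2.92 in ectoderm and 0.30 in mesoderm. For Col17a1 the difference was 3.68 (adjusted p = 0.0157), with 5.20 in ectoderm and 1.52 in mesoderm. For Col7a1 it was 2.90 (adjusted p = 0.0208), with 5.57 and 2.68. The Itga6 and Itgb4 calls held in every alternative run. That of Col17a1 was lost without replicate 2 of mesoderm at E9.5 (3.18, adjusted p = 0.149), and that of Col7a1 without any 1 of 5 libraries.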

How the results depend on the processing

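The count of the 9 genes higher in ectoderm over the 4 stages was 9 in every alternative. Of the other counts, some moved. With the replicate number as a block, the counts higher in ectoderm were 5 for E10.5 against E9.5, 6 for E11.5 against E10.5 and 4 for E12.5 against E11.5. In mesoderm this block gave 3 higher for E11.5 against E10.5, and 1 higher and 3 lower for E12.5 against E11.5. It also gave 1 gene lower in ectoderm from E9.5 to E12.5, as did DESeq2 and limma on FPKM (1 each). With no filter on low counts, the same ectoderm steps gave 5, 6 and 3 higher, the mesoderm steps 4 higher, then 1 higher and 3 lower, and the difference of the change between layers 5 higher, as in limma on FPKM (5). DESeq2 gave 2 and 2 higher for the later ectoderm steps, and 3 higher, then 1 higher and 3 lower, for the later mesoderm steps. The shares of all tested genes called with no filter, DESeq2, limma on FPKM or 1 library left out are not given here. A shift of the 9 genes therefore cannot be told apart from a shift of calls in all genes. The cause of these shifts was not tested.

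Leaving out 1 library at a time gave ranges of 6 to 7 (E9.5), 8 to 9 (E10.5) and 8 to 9 (E12.5) genes higher in ectoderm than mesoderm. For E12.5 against E9.5 the ranges were 5 to 7 higher and 0 to 1 lower in ectoderm, and 3 to 5 higher and 0 to 1 lower in mesoderm. For single days they were 0 to 4, 0 to 1 and 0 to 0 higher in ectoderm, and 0 to 3, 0 to 2 and 0 to 1 higher and, for the last, 0 to 1 lower in mesoderm. For the difference between layers the range was 1 to 4 higher. The change of Itgb4 in mesoderm from E9.5 to E12.5 (0.30, not called) ran from -0.35 to 0.69 and was -0.35 without replicate 1 of mesoderm at E12.5.

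Of the bins of Itga6, Dst and Plec, limma diffSplice called 11 higher and 0 lower between layers. The share of all bins called by limma diffSplice is not given here. The replicate block called 19 higher and 31 lower by number, and 15 and 30 by embryo batch. In ectoderm from E9.5 to E12.5, limma diffSplice called 2 higher, and the block 3 higher and 6 lower. Leaving out 1 library gave 4 to 10 higher and 0 to 2 lower between layers, and 0 to 1 in each direction with stage. Depth limits the mesoderm values of Itgb4, Lama3 and Lamb3 and of the Itga6 cassette, which rest on few counts.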
